A study of Mus musculus with 2 samples.

Results

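The genes described here are the 42 mouse genes that encode the Wnt ligands, their receptors and the core intracellular transducers of the signal, out of 20953 protein-coding genes with a curated transcript. They were chosen by name: 19 Wnt ligand genes, 12 receptor genes (10 frizzleds, Lrp5 and Lrp6) and 11 transducer genes (Dvl1 to Dvl3, Axin1, Axin2, Apc, Ctnnb1, Tcf7, Tcf7l1, Tcf7l2 and Lef1). A gene counted as labelled when its symbol stood on a row of the authors' list of Sap130 peaks, and 29 of the 42 were labelled (69.0%, against 49.2% of all protein-coding genes), with 33 of the 16231 peaks. Sap130 belongs to the Sin3 histone deacetylase complex, a corepressor that is brought to chromatin by other factors. Brain of B6 wildtype embryos at E13.5 (embryonic day) gave both libraries: chromatin immunoprecipitation followed by sequencing (ChIP-seq) with a rabbit anti-Sap130 antibody (2 µg), and input DNA, chromatin that was not precipitated. The number of embryos and whether they were pooled are not stated in the labels. There was 1 library of each kind, so no value below has a replicate error, no test over samples was possible, and the depth of the libraries is unknown.

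Wnt proteins are secreted, lipid-modified signals that bind a frizzled receptor together with the co-receptor Lrp5 or Lrp6. The signal passes through the dishevelled proteins (Dvl) and stops a destruction complex, built on Axin and Apc, from marking beta-catenin (Ctnnb1) for degradation, and beta-catenin then acts with the DNA-binding proteins of the TCF and LEF family. In the embryonic brain the pathway is known for patterning the midbrain, the hindbrain and the dorsal edge of the cortex, and for keeping progenitors dividing.

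Sap130 peaks were labelled with all 12 receptor genes and 10 of 11 transducer genes, but with 7 of 19 ligand genes. Promoters from both sides of this difference are shown first. Each run holds the 250 bases before a RefSeq start in GRCm38.p6, 5′ to 3′ on the gene's strand, with every CpG dinucleotide in capitals, because, over all genes, the share of starts under a peak grew with CpG content. Wnt7a, Fzd9 and Ctnnb1 had the labelled peak earliest in the list of the ligands, the receptors and the transducers among genes in the promoter table. Wnt1 and Axin2 were the first ligand and the only transducer without a label. Wnt9a was added after its values were seen, as the ligand start richest in CpG.
Wnt7a: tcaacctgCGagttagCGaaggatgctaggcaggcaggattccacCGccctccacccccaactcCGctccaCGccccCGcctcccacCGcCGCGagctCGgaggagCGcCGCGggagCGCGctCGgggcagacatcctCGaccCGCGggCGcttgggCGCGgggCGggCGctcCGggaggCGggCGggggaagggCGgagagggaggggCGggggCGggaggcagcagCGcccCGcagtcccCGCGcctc
Fzd9: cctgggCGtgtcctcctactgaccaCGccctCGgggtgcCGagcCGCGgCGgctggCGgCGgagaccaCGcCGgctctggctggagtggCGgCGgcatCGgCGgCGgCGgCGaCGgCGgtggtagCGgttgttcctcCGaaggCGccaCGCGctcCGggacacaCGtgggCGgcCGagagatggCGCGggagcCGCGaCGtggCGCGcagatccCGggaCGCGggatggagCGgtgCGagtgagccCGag
Ctnnb1: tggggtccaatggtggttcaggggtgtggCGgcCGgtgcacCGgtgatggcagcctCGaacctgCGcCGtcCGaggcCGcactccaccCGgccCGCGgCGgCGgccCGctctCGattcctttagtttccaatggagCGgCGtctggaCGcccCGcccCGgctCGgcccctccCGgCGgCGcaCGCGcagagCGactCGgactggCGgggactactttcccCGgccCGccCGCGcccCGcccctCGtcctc
Axin2: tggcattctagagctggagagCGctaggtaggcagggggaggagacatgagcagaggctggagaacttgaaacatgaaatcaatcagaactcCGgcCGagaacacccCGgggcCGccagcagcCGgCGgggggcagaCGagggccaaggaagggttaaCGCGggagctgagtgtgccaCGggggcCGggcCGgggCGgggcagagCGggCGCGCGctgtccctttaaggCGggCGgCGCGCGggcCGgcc
Wnt1: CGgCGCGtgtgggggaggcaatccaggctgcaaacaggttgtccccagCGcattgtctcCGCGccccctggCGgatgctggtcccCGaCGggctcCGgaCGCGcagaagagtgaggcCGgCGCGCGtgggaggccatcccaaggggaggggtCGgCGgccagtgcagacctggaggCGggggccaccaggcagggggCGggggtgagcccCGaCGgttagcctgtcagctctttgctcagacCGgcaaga
Wnt9a: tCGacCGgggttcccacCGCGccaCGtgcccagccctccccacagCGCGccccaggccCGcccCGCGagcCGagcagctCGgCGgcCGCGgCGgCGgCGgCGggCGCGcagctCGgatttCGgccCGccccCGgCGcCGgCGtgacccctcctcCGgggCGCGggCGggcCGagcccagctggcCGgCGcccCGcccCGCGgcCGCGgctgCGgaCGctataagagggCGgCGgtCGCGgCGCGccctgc
The runs lie at chr6:91411354-91411603, minus strand (Wnt7a), chr5:135251048-135251297, minus strand (Fzd9), chr9:120933150-120933399, plus strand (Ctnnb1), chr11:108920099-108920348, plus strand (Axin2), chr15:98789607-98789856, plus strand (Wnt1) and chr11:59306680-59306929, plus strand (Wnt9a). They hold 34, 42, 35, 24, 23 and 48 CpG dinucleotides in the same order. A peak covered the start that follows the run in Wnt7a (by the outer edge of the peak), Fzd9, Ctnnb1 and Axin2, and not in Wnt1 or Wnt9a. Wnt9a has the most CpG of the 6 runs.

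By class, 7 of 19 ligand genes (36.8%, exact binomial 95% interval 16.3 to 61.6), all 12 receptor genes (100%, interval 73.5 to 100) and 10 of 11 transducer genes (90.9%, interval 58.7 to 99.8) were labelled. Among all 20953 protein-coding genes the share was 49.2%. The intervals of the receptors and of the transducers lie above that share, and the interval of the ligands includes it. The ligand interval overlaps that of the transducers and lies below that of the receptors. These intervals cover counting error only and treat genes as independent. With labels kept only where the peak centre lay within 500 bp of the start, 7 of 19 ligands, 8 of 12 receptors and 6 of 11 transducers were counted, against 44.0% of all genes. At that setting the intervals of the receptors (34.9 to 90.1), the transducers (23.4 to 83.3) and the ligands (16.3 to 61.6) all include the share of all genes. Within the transducers, 6 of 7 cytoplasmic members and all 4 DNA-binding members (Tcf7, Tcf7l1, Tcf7l2 and Lef1) were labelled.

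Peak coordinates below are those of the list, in GRCm38 (mm10). Each peak has a running number, here called its place, and the quantity by which the authors ordered the list is not stated. Width fell along the list (Spearman's rho = -0.72 across all peaks). In the first 4057 places, 5 of 11 transducers, 3 of 12 receptors and 0 of 19 ligands were labelled, against 17.3% of all protein-coding genes. The count of 0 allows a ligand share of up to 15.8% at 3 counts, and its exact interval reaches 17.6%, which includes the share of all genes. The intervals of the transducers (16.7 to 76.6) and of the receptors (5.49 to 57.2) include that share too. In the first 8115 places the counts were 6 of 11 transducers (54.5%), 5 of 12 receptors (41.7%) and 1 of 19 ligands (5.26%), against 33.0% of all genes. There the intervals of the transducers (23.4 to 83.3) and of the receptors (15.2 to 72.3) include the share of all genes, and that of the ligands (0.133 to 26.0) lies below it.

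**Figure D1:**
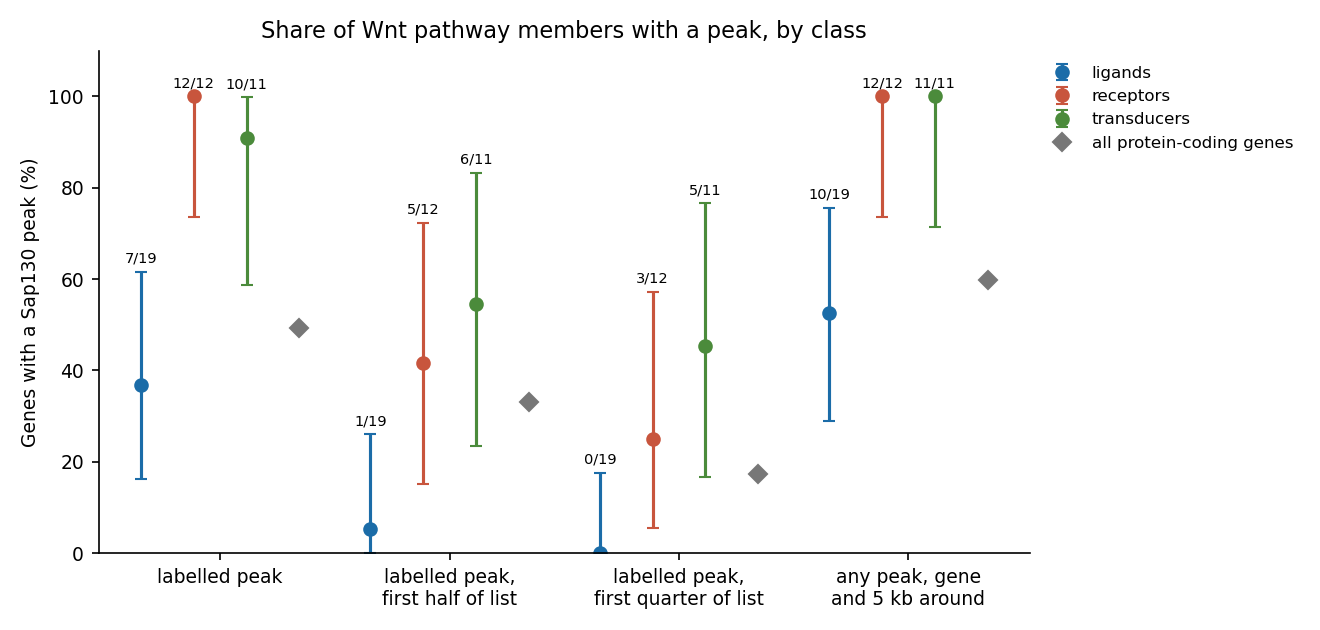
Share of genes with a Sap130 peak (vertical axis, %) by class, under 4 definitions along the horizontal axis: a labelled peak, one in the first 8115 or the first 4057 places of the list, and any peak over the gene or within 5 kb of it. Points are shares with exact binomial 95% intervals and counts above them, and grey diamonds give all protein-coding genes. Ligands lie below the diamond under each definition (36.8% against 49.2% for a labelled peak). Their interval includes the diamond except in the first 8115 places.

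Among the ligands, the labelled genes were Wnt7a, Wnt3, Wnt5b, Wnt5a, Wnt7b, Wnt4 and Wnt2b, in the order of the list. Wnt7a, made by progenitors of the ventricular zone, had 2 labelled peaks, of 1595 bp at place 7135 (chr6:91409759-91411354, centred in intron 1) and of 404 bp at place 10799 upstream of the start. Its paralogue Wnt7b had a labelled peak of 817 bp at place 12298 (chr15:85577548-85578365, in the 5′ UTR of exon 1), an unlabelled peak of 432 bp beside it and a peak of 1624 bp at place 7664. The last of these overlapped the outer 5′ end of the annotated Wnt7b gene but was labelled with AU022754.

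Wnt5a, the best known ligand of signalling without beta-catenin, had a 1619 bp peak across its start (place 10560, chr14:28504527-28506146), and Wnt5b a 583 bp peak in the 5′ UTR of exon 1 (place 10459, chr6:119543704-119544287). Wnt3 carried 2 small peaks of 394 bp (place 10413, chr11:103774047-103774441) and 228 bp (place 15470). Wnt4 had a 509 bp peak at place 14705 and Wnt2b a 404 bp peak at place 15577, the last labelled member in the list. Over the 7 labelled ligands the median place was 10560 and the median width 583 bp, against 5851.5 and 841 bp over all labelled protein-coding genes. They stood late in the list and were narrower by median, but the middle quartiles of width overlapped (456.5 to 1206 bp, against 574 to 1208 bp). The widest peaks of Wnt7a and Wnt5a were wider than 841 bp.

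The 12 ligands without a label included Wnt1, Wnt3a and Wnt8b. Wnt1, which marks the boundary of midbrain and hindbrain, had no peak within 5 kb, and the peak nearest to its start lay 18110 bp away and was labelled Ddn. Wnt3a and Wnt8b had their nearest peak 26489 and 61307 bp from the start. For the 10 unlabelled ligands in the RefSeq promoter table (all but Wnt8a and Wnt10a), the start-to-peak distance ranged from 14568 bp at Wnt10b to 279231 bp at Wnt2, with a median of 28920.5 bp. No start of these 10 genes had a peak within 10 kb, which allows a share of up to 30% and so includes the 19.5% of 8444 unlabelled protein-coding genes. The median distance of those genes was 69156 bp.

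Only 3 of the unlabelled ligands had any peak over the gene or within 5 kb. Wnt3a held an unlabelled 247 bp peak inside the gene (place 14609). Wnt10a held an unlabelled 373 bp peak (place 13782, chr1:74803244-74803617). Wnt9b overlapped, by its outermost annotated transcripts, both peaks of its neighbour Wnt3, which lie at least 23845 bp from the Wnt9b start in the promoter table. The other 9, namely Wnt1, Wnt2, Wnt6, Wnt8a, Wnt8b, Wnt9a, Wnt10b, Wnt11 and Wnt16, had none.

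Several Wnt genes lie side by side, so their labels may not be independent. Wnt10b and Wnt1 on chromosome 15, Wnt6 and Wnt10a on chromosome 1, and Wnt3a with Wnt9a and Wnt9b with Wnt3 on chromosome 11 are neighbours within 16097 bp. Of the 8 genes in these pairs, 1 was labelled (Wnt3, 12.5%, interval 0.316 to 52.7), and of the 11 ligands elsewhere 6 were (54.5%, interval 23.4 to 83.3). These intervals overlap, and both include the 49.2% of all genes. The pairs were defined after the values were seen, as ligand genes within 100 kb of each other.

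All 10 frizzled genes were labelled, and these receptors differed widely in place and width. Fzd9, whose human counterpart is among the genes lost in Williams syndrome, had a 2294 bp peak at place 670 (chr5:135249295-135251589), the earliest of all 42 members. Fzd3, which guides axon tracts in the forebrain, had a 2308 bp peak at place 1121 (chr14:65260609-65262917, centred in intron 1). Fzd8 had a 2857 bp peak at place 4738, the widest labelled peak among the members. At the other end, Fzd6 had a 408 bp peak at place 14764 and Fzd1 a 276 bp peak at place 13413. The earliest labels of Fzd7, Fzd10, Fzd4, Fzd5 and Fzd2 stood between places 9158 and 12392.

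Some frizzleds with a late label had wide peaks without a label beside it. Fzd1 had an unlabelled peak of 3302 bp at place 4896 (chr5:4754733-4758035) that began 181 bp inside the gene, and Fzd2 one of 2859 bp at place 6764 (chr11:102604273-102607132) that ran across its start. Fzd7 had 2 unlabelled peaks of 893 and 223 bp within the gene. With these counted, 5 of 10 frizzled genes (Fzd1, Fzd2, Fzd3, Fzd8 and Fzd9) carried a peak of at least 2 kb over the gene, that is 50% (interval 18.7 to 81.3), against 3.45% of all protein-coding genes. Among the ligands it was 1 of 19, and that peak, in Wnt5b, was labelled Fbxl14. The limit of 2 kb was set after the values were seen.

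In the frizzleds without introns, peaks lay over coding sequence. Fzd1, Fzd2, Fzd7, Fzd8, Fzd9 and Fzd10 have a model with a single exon in the authors' table. Peaks covered all of the coding part of Fzd1, Fzd2 and Fzd8, 97.5% of that of Fzd9, 72.5% of that of Fzd10 and 63.9% of that of Fzd7. The median over these 6 genes was 98.7%, against 67.0% over all 260 labelled single-exon coding genes and 33.7% over the 51 of these with a coding part of at least 1.5 kb. The middle quartiles were 78.7 to 100%, 29.6 to 100% and 9.39 to 64.4% in the same order. Those of the 6 frizzleds thus lie within those of the 260 genes. The labelled peaks of Fzd4 and Fzd5, whose models have 2 exons, were at most 737 bp wide.

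The co-receptor genes each had 1 peak at the start and no other within 5 kb of the gene. Lrp6, the co-receptor whose loss in mice is lethal at birth, had a 1653 bp peak at place 3890 (chr6:134565909-134567562, centred in the 5′ UTR of exon 1). Lrp5 had a 1090 bp peak at place 7964 (chr19:3685750-3686840, centred in intron 1).

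By median place, the cytoplasmic transducers stood earliest. Ctnnb1, which encodes beta-catenin, had a 1960 bp peak at place 866 (chr9:120933321-120935281, centred in intron 1). The dishevelled genes, which link the receptor to the destruction complex, had narrower peaks close behind it in the list. Dvl1 stood at place 1175 (998 bp, chr4:155847359-155848357), Dvl3 at place 1556 (1722 bp, chr16:20516603-20518325) and Dvl2 at place 1972 (1224 bp, chr11:70000239-70001463). Each of these peaks covered the start. Apc, the tumour suppressor of the destruction complex, had an 856 bp peak at place 3325 in intron 1 and a wider unlabelled one of 1814 bp at place 2526, which lay 26280 to 28094 bp inside the gene.

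Axin1, the scaffold of the destruction complex, was labelled with an 811 bp peak at place 4348 (chr17:26138614-26139425). It had 2 more peaks, unlabelled, of 704 and 249 bp, at -7433 to -6265 bp from that start and inside the outer 5′ end of the annotated gene. The median place of the 6 labelled cytoplasmic genes was 1764 (range 866 to 4348), against 5851.5 over all labelled genes and 9893.5 (range 8378 to 15492) over the 4 DNA-binding factors. The earliest labelled places of the cytoplasmic genes and of the TCF and LEF genes did not overlap. With unlabelled peaks counted they did, since Lef1 had one at place 4664 and the earliest at Axin2 was at place 5715.

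**Figure D2:**
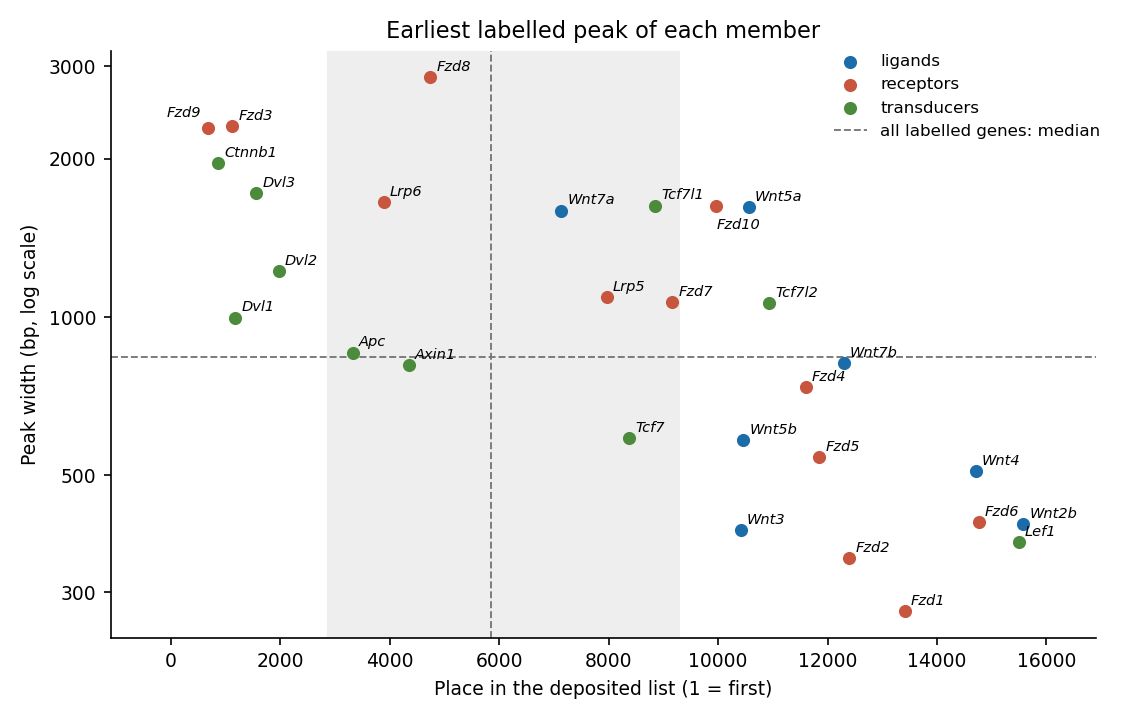
Earliest labelled peak of each of the 29 labelled members, by place in the deposited list (horizontal axis, 1 is first) and width (vertical axis, bp, log scale). Colours give the class, dashed lines the medians of all labelled protein-coding genes (place 5851.5, width 841 bp) and the grey band their middle quartiles of place. Fzd9, Ctnnb1, Fzd3 and the 3 Dvl genes stand left of the band (up to place 1972), and 6 of the 7 ligands stand right of it (from place 10413).

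Axin2 was the transducer without a label, but 3 unlabelled peaks lay over it. This feedback inhibitor, itself a standard target gene of the pathway, had a peak of 2759 bp at place 5715 (chr11:108920099-108922858), with the others, of 458 and 324 bp, behind it. The wide peak covered the RefSeq start at 108920349. Its centre lay 1129.5 bp downstream of that start, whereas no label in the whole list had its centre more than 999.5 bp from a start. A peak of any width or label over a RefSeq start was found at 770 of the 8444 unlabelled protein-coding genes in the promoter table (9.12%).

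The TCF and LEF genes, which encode the DNA-binding partners of beta-catenin, all had labels late in the list, and Lef1 and Tcf7l2 had several peaks. Lef1 was labelled with a 373 bp peak at place 15492, at an inner start. Its outermost start lay under an unlabelled peak of 2671 bp at place 4664 (chr3:131110266-131112937), and 2 more unlabelled peaks of 1024 and 355 bp lay at -4888 to -3367 bp from that start. Tcf7l2, prominent in the thalamus, had a labelled 1065 bp peak (place 10936, chr19:55741854-55742919, centred in the coding part of exon 1) and 6 unlabelled peaks of 218 to 1117 bp, 4 of them within 3589 bp downstream of the start. Tcf7l1, mainly a repressor, had 1 peak of 1630 bp at place 8851, and Tcf7 1 of 588 bp at place 8378.

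**Figure D3:**
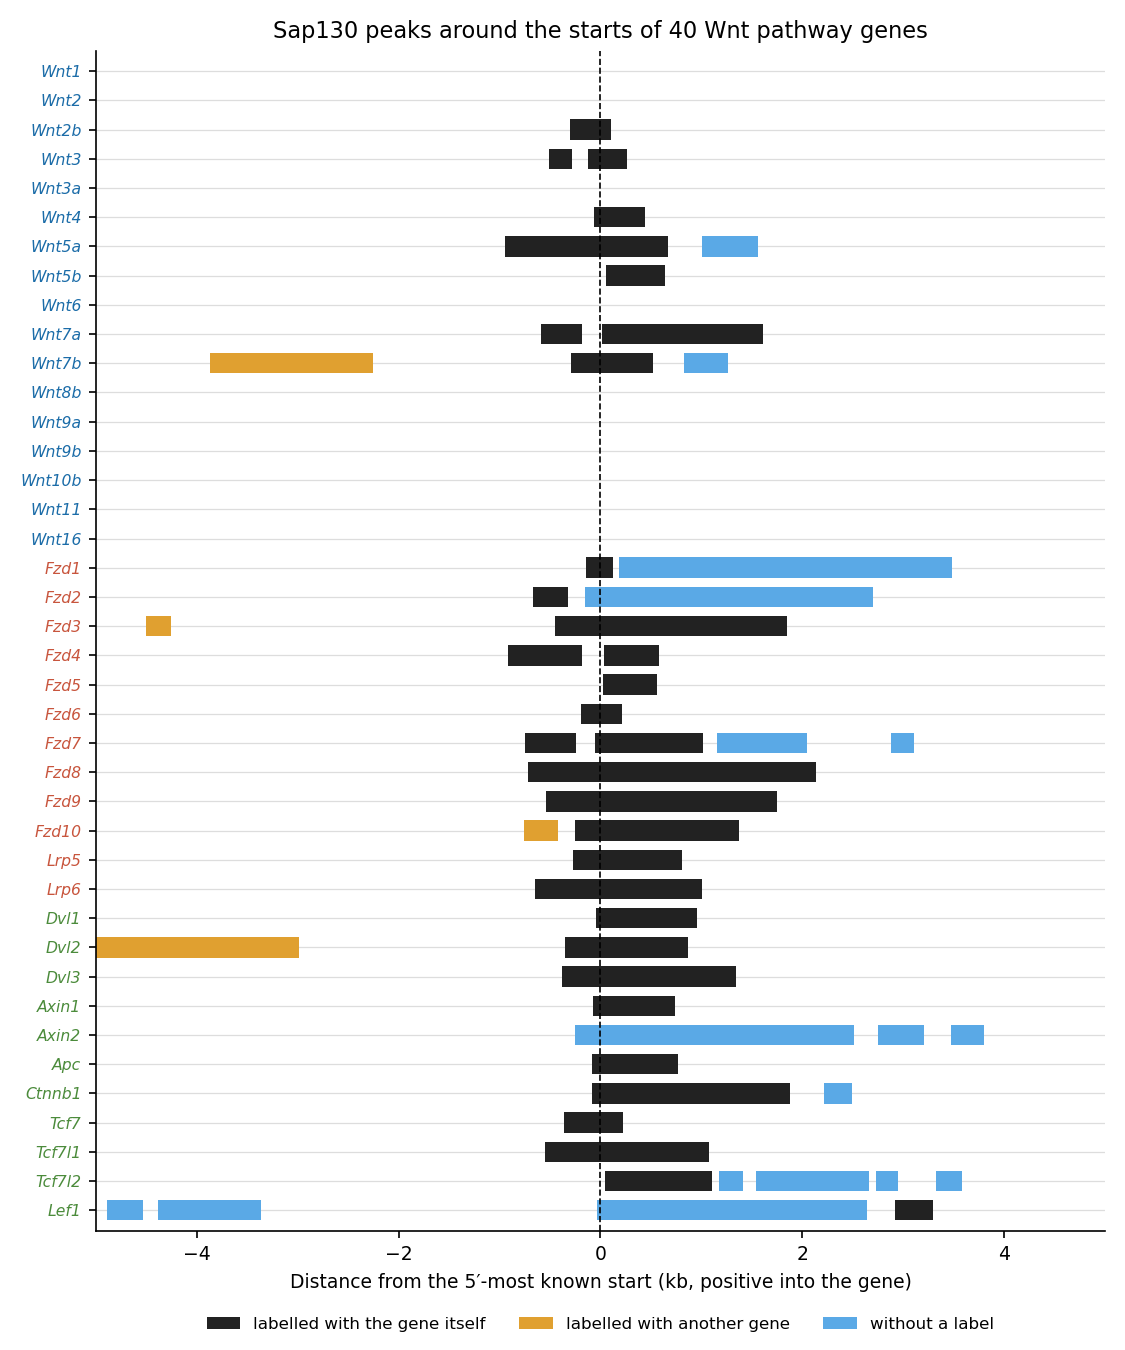
Sap130 peaks (bars) around the 5′-most known start (dashed line, distance in kb, positive into the gene) of the 40 members with a known start and strand, ligands first, then receptors and transducers. Black bars are labelled with the gene itself, orange bars with another gene and blue bars with none. The rows of 10 ligands are empty, and the wide blue bars at Fzd1, Fzd2, Axin2 and Lef1 are peaks of 2671 to 3302 bp without a label.

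Counting every peak over a gene or within 5 kb of it, the transducers had 30 peaks at 11 genes, the receptors 20 at 12 and the ligands 17 at 19, of which the 2 Wnt3 peaks counted at Wnt9b as well. All 11 transducers, all 12 receptors and 10 of 19 ligands had at least 1 such peak, against 59.8% of all genes. At least 2 were found at 9 of 11 transducers (81.8%), 6 of 12 receptors (50%) and 6 of 19 ligands (31.6%), against 25.3% of all genes. Without the Wnt3 peaks at Wnt9b it was 5 ligands. Tcf7l2 with 7 peaks, Lef1 with 4 and Fzd7 with 4 were the members with 4 or more, a number reached by 2.94% of all genes. Longer genes offer more room for peaks: the median gene length was 36.9 kb for transducers, 5.28 kb for receptors and 22.9 kb for ligands, against 17.8 kb for all genes. The part of length in these counts was not tested. With any peak overlapping 1 kb around either gene end, 9 of 19 ligands, 12 of 12 receptors and 10 of 11 transducers were counted, against 52.0% of all genes.

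Most labelled peaks lay just downstream of a start. Of the 33 labelled peaks, 24 (72.7%) had their centre downstream of the start, compared with 77.6% of the 12178 labelled peaks of protein-coding genes. By the authors' models, 9 centres were upstream (27.3%, against 22.4% of all), 9 in the 5′ UTR of exon 1 (27.3%, against 19.2%), 7 in coding exon 1 (21.2%, against 15.1%) and 8 in intron 1 (24.2%, against 40.5%). Of the 29 labelled members, 4 had 2 labelled peaks (Wnt3, Wnt7a, Fzd4 and Fzd7), or 13.8%. Among all labelled protein-coding genes, 16.3% had 2 or more. In each of the 4 members the peaks stood on either side of the start. This was also the case at 84.6% of the 1316 genes with 2 peaks labelled at the same start. At Fzd4, the receptor that also binds Norrin and is required for retinal vessels, peaks of 737 and 540 bp (places 11602 and 12773) left the start itself uncovered. The start of the authors' Wnt7a model was uncovered too, unlike the RefSeq start of Wnt7a above. By the authors' models this made 2 of the 4 members, against 25% of the 1316 genes.

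Ligand starts were rich in CpG, as those of the other classes were, and 4 of the 18 in the promoter table lay under a peak. The RefSeq promoter table held 39 starts of 30 members. Over the 300 bases around each start, the median count of CpG dinucleotides was 28 for 18 ligand starts, 35 for 6 receptor starts and 30 for 15 transducer starts, against 14 for all 20418 protein-coding starts. Median GC content was 71%, 74.2% and 70%, against 57% for all starts. A peak covered 4 of the 18 ligand starts (22.2%), 4 of the 6 receptor starts and 11 of the 15 transducer starts (73.3%), against 42.2% of all starts. The ligand starts include 3 of Wnt5b and 2 of Wnt11, all uncovered. They leave out Wnt5a and Wnt7b, whose labelled peaks covered the start of the authors' model. By gene, 4 of 15 ligands had a covered start (26.7%, interval 7.79 to 55.1), which includes the 44.8% of all genes.

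Over all protein-coding starts, the share under a peak grew with CpG count: it was 4.48% at 0 to 9, 54.1% at 10 to 19, 73.1% at 20 to 29 and 83.3% at 30 or more. At 30 or more, 3 of 8 ligand starts (37.5%, interval 8.52 to 75.5), 2 of 4 receptor starts (50%, interval 6.76 to 93.2) and 7 of 8 transducer starts (87.5%, interval 47.3 to 99.7) were covered. The 5 such ligand starts without a peak were those of Wnt9a (58 CpG), Wnt5b (47), Wnt3a (45), Wnt11 (45) and Wnt6 (31). The Wnt5b start lay 60 bp from its labelled peak, while the other 4 were at least 19124 bp from any peak. The receptor starts without one, at Fzd5 and Fzd4, lay 23 and 39 bp from their labelled peaks, and the transducer start without one, at Tcf7l2, 44 bp. At 20 to 29, 1 of 5 ligand starts was covered, with Wnt1 (26 CpG), Wnt2 (27), Wnt9b (29) and the inner start of Wnt11 (23) free of peaks. The interval of the ligands at 30 or more lies below the share of all starts in that range, but it would include 83.3% if Wnt5b alone were added (50%, interval 15.7 to 84.3). That comparison leaves the count of all starts unchanged. With every start within 100 bp of a peak counted, a setting chosen after seeing the data, it was 4 of 8 ligand, 4 of 4 receptor and 8 of 8 transducer starts, against 92.5% of all starts. There the ligand interval (15.7 to 84.3) lies below the share of all starts, and those of the receptors (39.8 to 100) and transducers (63.1 to 100) include it. The classes of CpG count were set after the values were seen, and close starts of 1 gene share sequence. The part of CpG in the ligand counts beyond these values was not tested.

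**Figure D4:**
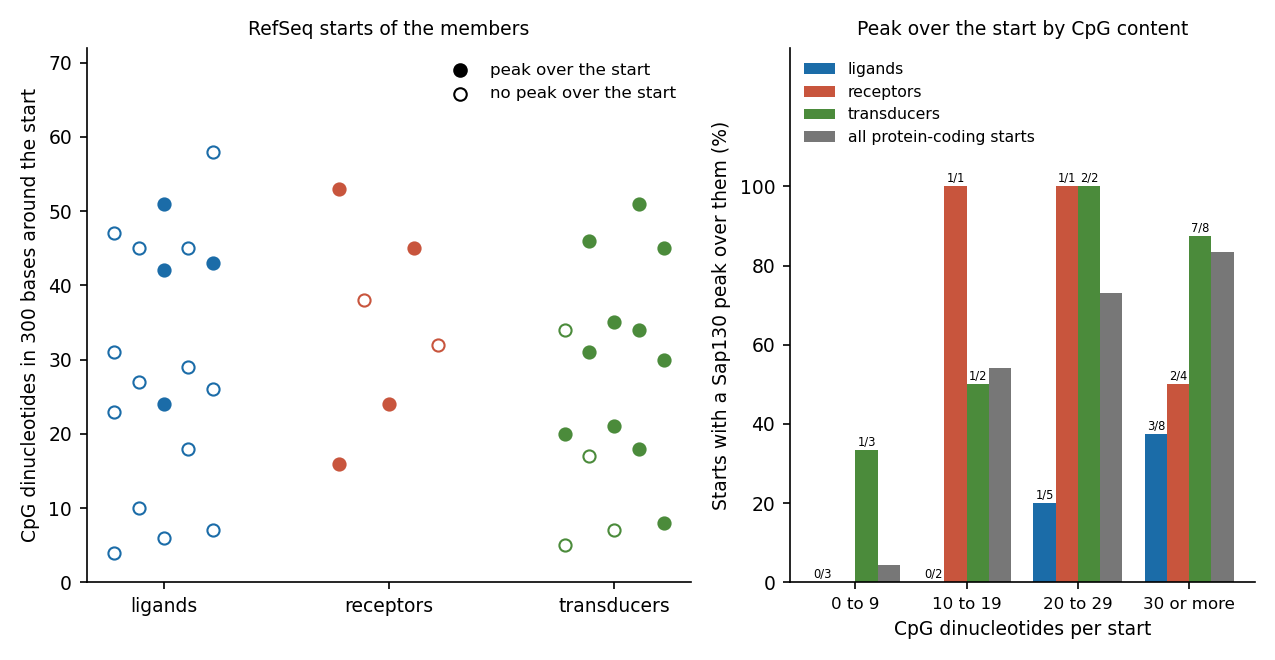
Left, CpG dinucleotides in the 300 bases around each of 39 RefSeq starts of the members by class, filled where a Sap130 peak covers the start. Right, the share of starts under a peak (%) by CpG count for ligands, receptors and transducers, with counts, and for all protein-coding starts. At 30 or more CpG, 3 of 8 ligand, 2 of 4 receptor and 7 of 8 transducer starts are covered, against 83.3% of all starts.

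Short motifs in these 300 bases were searched on both strands. The GC box GGGCGG stood at 32 of 39 member starts (82.1%) and at 47.7% of all starts, and within the members at 18 of 19 starts under a peak and 14 of 20 without. Median GC content was 70.7% at member starts and 57% at all starts, and within the members 74% under a peak and 68.2% without. The part of GC content in the GC box counts was not tested. The E-box CACGTG, which Myc, Max and Mxd proteins bind, was found at 4 of 39 starts (Wnt9a, Fzd9, Dvl2 and an inner start of Lef1), or 10.3%, against 8.05% of all starts. The TCF and LEF core ATCAAAG occurred at starts of Wnt5b and Wnt11 alone (5.13%, against 3.22%). The CCAAT box CCAAT was found at 28.2% of member starts (38.4% of all), the letters TATAAA at 15.4% (12.4%), the ETS site CCGGAAG at 7.69% (11.9%) and the NRF1 core GCGCATG at 2.56% (4.94%). The E-box of Wnt9a and that of Fzd9 can be read in the runs above as caCGtg.

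Other genes of the pathway were grouped by role. Of 98 genes in 10 partly overlapping lists, 66 were labelled (67.3%, interval 57.1 to 76.5), against 49.2% of all genes. All 9 planar cell polarity genes were labelled, with Scrib at place 1027 and the cadherins Celsr3 (place 1352, 2880 bp) and Celsr2 (place 1608) earliest. Of 16 destruction complex genes and regulators, 15 (93.8%) were, led by the kinase genes Csnk1g2 (place 675) and Gsk3a (place 1529) and by Tnks2 (place 1400), a tankyrase that removes Axin. Siah1a was the exception. Of 15 nuclear cofactors, 13 (86.7%) were labelled, with the acetyltransferase gene Crebbp (place 1227) and the corepressors Ctbp2 (place 1771) and Ctbp1 (place 1855) earliest and Tle1 and Chd8 the exceptions. Among 6 cytoplasmic inhibitors, Ctnnbip1 (place 3017), Nkd1 (place 3035) and Dact3 (place 3421) were earliest and Cby1 had no label.

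Secreted antagonists, which bind Wnt proteins or Lrp5 and Lrp6 outside the cell, had the lowest share of the 10 lists. Labels were found at 3 of 13 (23.1%, interval 5.04 to 53.8), an interval that includes the 49.2% of all genes. These were Sfrp1 at place 5141, Sfrp2 at place 10958 and Frzb at place 14168. Dkk1, Dkk2 and Dkk3 were among the 10 without a label. R-spondins and their Lgr receptors were labelled at 4 of 7 (Lgr4, Rspo2, Lgr5 and Rspo3), with Rspo1, Rspo4 and Lgr6 free of labels. The intervals of this list (18.4 to 90.1) and of the alternative receptors below (29.0 to 96.3) also include the share of all genes. Both genes for Wnt secretion had a label, the acyltransferase gene Porcn at place 7407 and the carrier gene Wls at place 11953. Of 7 alternative receptors, 5 were labelled, Ptk7 (place 2662), Ryk (place 3961) and Reck (place 4379) first, with Ror1 and Musk the exceptions. A list of 6 genes for membrane proteins that act on Wnt signalling is plotted as membrane antagonists, a name that may not hold for each. In it, Znrf3 (place 4564), Apcdd1 (place 6917) and Tmem67 (place 7682) came first and Rnf43 and Kremen2 had no label.

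Feedback and target genes of the pathway were labelled at 9 of 23 (39.1%, interval 19.7 to 61.5), an interval that includes the 49.2% of all genes. With any peak over the gene or within 5 kb, 16 of 23 (69.6%, interval 47.1 to 86.8) were counted. This interval includes the 59.8% of all genes. Nkd1 (place 3035), Znrf3 (place 4564) and Dlx2 (place 5252) stood first. Sp5, Sp8 and Notum were among the 14 without a label, but 2 peaks lay over Sp5 or within 5 kb of it and 3 over or near Sp8.

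**Figure D5:**
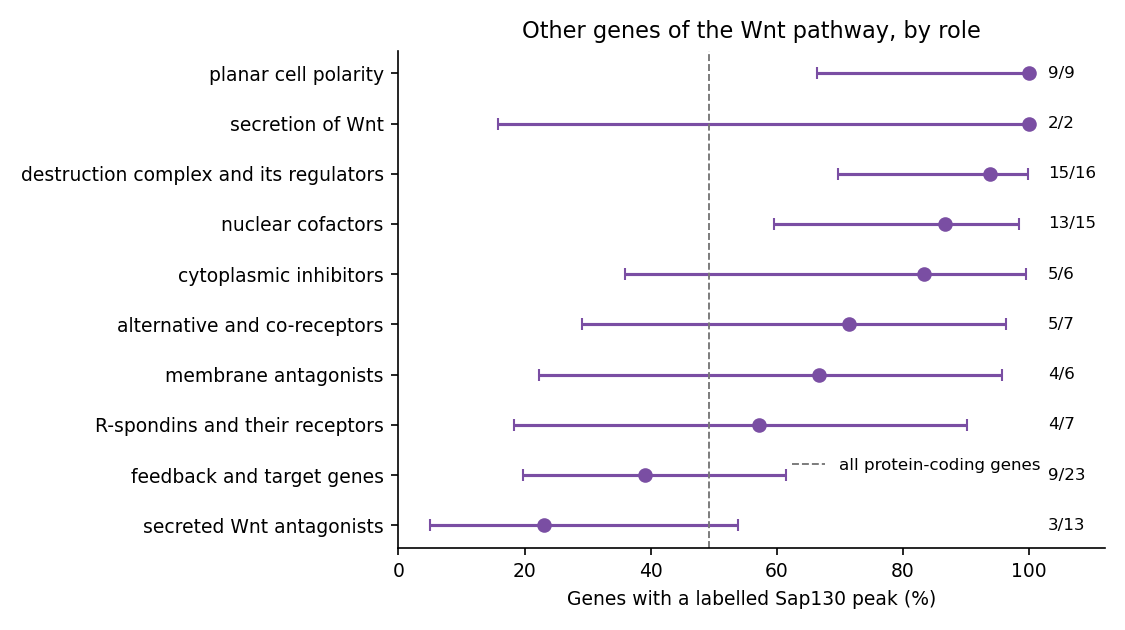
Share of genes with a labelled Sap130 peak (horizontal axis, %) in 10 lists of other Wnt pathway genes, with exact binomial 95% intervals and counts at the right. The dashed line is the 49.2% of all protein-coding genes. Lists run from planar cell polarity (9 of 9) at the top to secreted antagonists (3 of 13) at the bottom.

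The peak list does not measure expression, and brain holds many cell types, so a peak cannot be assigned to one of them. As a check of the tissue, 5 of 7 neural marker genes were labelled (Sox2, Pax6, Tubb3, Mapt and Elavl4, not Nes and Dcx; interval 29.0 to 96.3), which includes the 49.2% of all genes. Of 8 markers of blood, immune cells and liver, 0 were labelled, which allows a share of up to 37.5%. These counts cannot decide the tissue. Over all starts the share under a peak grew with CpG count, and the CpG content of the markers was not compared.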

How the data were processed

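Sap130 ChIP-seq of E13.5 brain and its input DNA were analysed from 1 peak list of the whole series. Bowtie 1.1.2, MACS2 2.1.0.20140616 and GRCm38 (mm10) are named in the submitters' processing notes. The sources used here do not say how reads were aligned, which threshold peaks passed or how genes were joined to them. The deposited list holds coordinates and a running number for each peak, and a gene with its transcript model for labelled ones. From the values, every label lies with the peak centre at most 999.5 bp from a transcript start. Heights and q-values are not in the list used here, so stricter thresholds could not be applied.

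The members and the lists of other genes were chosen with earlier results of these data known. A member was labelled when its symbol stood on a peak. The background was the 20953 protein-coding genes with a curated transcript on the autosomes and X. Labels were matched to RefSeq genes of GRCm38.p6 by accession (12520 peaks) or symbol (134), and 2 stayed unmatched. Of the members, 30 matched the RefSeq promoter table; the other 12 were Wnt5a, Wnt7b, Wnt8a, Wnt10a, Fzd2, Fzd3, Fzd6, Fzd8, Lrp5, Lrp6, Axin1 and Apc. Peaks are printed as deposited, width is end minus start, and transcript starts on the plus strand, which count from 0, were raised by 1. For a gene with several labelled peaks the earliest was used.

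Intervals of shares are exact binomial (Clopper-Pearson, 95%), treat genes as independent and leave out all but counting error, and no test was run. A count of 0 was read as up to 3 counts. Named were all members and, per list, the 3 earliest labelled genes with up to 3 unlabelled ones; Rspo3 was added after its value was seen. Alternatives were a 500 bp limit, the first 8115 places, wider peaks and peaks near gene ends or genes; the first 4057 places, peaks over RefSeq starts and peaks within 100 bp of CpG-rich starts were added after seeing the data. One marker of the tissue check is not reported here. Overlap counting was tested on simulated data. Python 3.11.15, pandas 2.3.3, scipy 1.17.1 and matplotlib 3.10.9 were used.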

Additional observations from a re-analysis of the deposited data

How the results depend on the processing

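With labels kept only where the peak centre lay within 500 bp of the start, the share of labelled genes was 50% over all members, 66.7% for receptors and 54.5% for transducers, and 55.1% for the other pathway genes, while ligands stayed at 36.8%, against 44.0% of all genes. The intervals of the members and of each class include 44.0%, and that of the other pathway genes (44.7 to 65.2) lies above it. In the first 8115 places it was 28.6% over all members, 5.26% for ligands, 41.7% for receptors, 54.5% for transducers and 48.0% for the other pathway genes, against 33.0%. Among peaks of at least the median width (690 bp) it was 45.2% over all members, 15.8% for ligands, 66.7% for receptors and 72.7% for transducers, against 31.7%. There the intervals of the receptors (34.9 to 90.1) and of the transducers (39.0 to 94.0) lie above 31.7%. Those of all members (29.8 to 61.3) and of the ligands (3.38 to 39.6) include it. In the first 4057 places, a setting chosen after seeing the data, the share was 19.0% over all members, 0% for ligands, 25% for receptors and 45.5% for transducers, against 17.3%. Each of their intervals includes 17.3%. Counting any peak over the gene or within 5 kb gave 100% of transducers, against 59.8%. Counting any peak over a RefSeq start, also chosen after seeing the data, gave 66.7% of the 6 receptors in the table, against 44.8%. The ligand share was below that of all genes and below those of the receptors and transducers in each of these settings, and with any peak overlapping 1 kb around a gene end (47.4%, against 52.0%). All of these settings recount the same peaks. The ligand interval included the share of all genes in each of them except the first 8115 places (0.133 to 26.0, against 33.0%). Counting CpG-rich starts within 100 bp of a peak, also added after seeing the data, gave 50% of ligand starts and 100% of receptor and transducer starts, against 92.5%. In all, 20 of 59 values moved beyond the interval of the reported share, and no median of place, width or promoter content moved by over 1.5 times. Except where a setting itself removes or adds peaks, the cause was not tested. Stricter q-values or heights could not be tried. No paired analysis was possible because ChIP and input have 1 library each and the list holds no value per library. Unknown depth limits every absence of a peak: a weaker enrichment may lie below the authors' threshold.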
